A study of Homo sapiens with 16 samples.

Results

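The genes described here are the vascular endothelial growth factors VEGFA, VEGFB, VEGFC and PGF, their receptors KDR and FLT1, the neuropilins NRP1 and NRP2, and the thrombospondins THBS1 and THBS2. Every array probe that the platform annotation assigned to 1 of these 10 gene symbols was taken, which gave 17 of the 24526 probes and 10 of the 16922 genes named on the array. Expression was measured on 16 Illumina HumanRef-8 BeadChip arrays, 1 per culture, in C4-2B/Rx2dox cells, a hygromycin-selected subline of the castration-resistant prostate cancer line C4-2B. The subline carries a lentiviral Flag-tagged mouse Runx2 cDNA that doxycycline (Dox) switches on, and the vehicle cultures carry it too. The 4 groups of 4 cultures each were Dox (250 ng/ml) for 24 h (Dox day 1), vehicle for 24 h (vehicle day 1), Dox for 48 h (Dox day 2) and vehicle for 48 h (vehicle day 2). The arrays include no Dox-treated cells without the cDNA, so effects of Dox itself and of Runx2 cannot be told apart in them.

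VEGFA is the principal secreted ligand that drives the growth of blood vessels. It binds the receptor tyrosine kinases KDR (VEGFR2) and FLT1 (VEGFR1), which are best known from endothelial cells, while VEGFB and PGF bind FLT1 and VEGFC is mainly a growth factor of lymphatic vessels. Neuropilins are co-receptors that bind VEGF as well as class 3 semaphorins, and they are also found on many tumor cells. THBS1 and THBS2 are secreted matrix glycoproteins that inhibit angiogenesis. Runx2 is a DNA-binding transcription factor of bone development.

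Promoter sequences of 8 of the 10 genes, all but VEGFA and NRP1, were taken from RefSeq (GRCh38.p14), and those of VEGFB and THBS1 are printed because these were the genes among the 8 whose transcripts were above background. Each is the 250 bases before the annotated start, 5′ to 3′ on the strand of the gene, and capitals mark the GC box letters GGGCGG on either strand (CCGCCC on the other), with overlapping matches joined. The VEGFB window is chr11:64234334-64234583 and the THBS1 window chr15:39580829-39581078, both on the plus strand.
VEGFB: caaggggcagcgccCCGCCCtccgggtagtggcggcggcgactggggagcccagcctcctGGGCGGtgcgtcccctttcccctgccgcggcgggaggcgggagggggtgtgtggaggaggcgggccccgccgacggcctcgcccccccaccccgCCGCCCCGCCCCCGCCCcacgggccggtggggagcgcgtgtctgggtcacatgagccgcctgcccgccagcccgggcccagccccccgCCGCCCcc
THBS1: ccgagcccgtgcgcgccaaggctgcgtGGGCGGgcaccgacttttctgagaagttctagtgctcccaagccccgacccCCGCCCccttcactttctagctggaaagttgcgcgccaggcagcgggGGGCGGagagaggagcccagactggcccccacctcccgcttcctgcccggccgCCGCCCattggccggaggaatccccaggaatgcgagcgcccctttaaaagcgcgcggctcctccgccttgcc
The VEGFB window held 6 matches and was 82.8% G or C, and the THBS1 window held 4 matches and was 69.6% G or C. At least 1 match lay in the windows of 7 of the 8 genes and in 42.6% of all 35116 promoters of this length in the table. The Runx consensus letters ACCACA were searched on both strands (TGTGGT on the other) and were in the 250 bases of 0 of the 8 genes, and in 11% of all promoters.

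Each array carries 664 negative controls, and the share of them brighter than a probe is its detection p. Below 0.01 the probe is called above background. Between 40.1% and 42.2% of probes were above background on each array, the median raw signal per array lay between 106.6 and 139.2, and arrays of 1 group correlated at 0.993 to 0.996 over all probes. These medians split by day. They were 124.9 to 139.2 with Dox and 119.1 to 124.2 with vehicle on day 1. On day 2 they were 106.6 to 112.8 with Dox and 108.0 to 111.1 with vehicle. Comparisons between days run along this difference, and its part in them was not tested. Values below are log2 signals after background correction and quantile normalization, so a difference of 1 is a doubling. Levels are compared between groups for 1 probe only, since different probes hybridize differently. The human RUNX2 probes did not register the mouse cDNA and do not check the labels: on each day neither was called, and 1 of the 16 arrays had a RUNX2 probe above background. Of the prostate epithelial markers, 7 of 7 measured were above background on all 16 arrays. Of 10 endothelial markers 3 were above background on some array and 0 on all 16, with PECAM1, CDH5, TEK, CLDN5, ESAM, ROBO4 and EMCN on none. Of 7 stromal markers 3 were above background on some array and 0 on all 16, with COL1A2, COL3A1, LUM and DCN on none.

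Of the 10 genes, 4 were measured above background, namely VEGFA, VEGFB, NRP1 and THBS1, through 7 of the 17 probes. Dox raised all 4 on both days by at least 1 probe. By their brightest probes VEGFA, NRP1 and THBS1 were 4.54-, 4.26- and 4.46-fold higher with Dox on day 1 (2.93-, 3.30- and 3.64-fold without background correction), while the second probes of VEGFA and NRP1 gave at least 1.65-fold and 1.77-fold. From there NRP1 and THBS1 diverged further on day 2 while the VEGFA difference narrowed, the VEGFA change resting on 1 of its 3 probes. VEGFB was higher by less than 1.3-fold. Since RNA was taken from whole cultures, more transcript per cell and more cells with the transcript cannot be told apart. On each day 6 of the 17 probes were called higher and 0 lower at an adjusted p under 0.05 (limma's moderated test with Benjamini-Hochberg adjustment over all 24526 probes), which is 35.3%. Over all probes, 8.91% were called higher and 9.94% lower on day 1, and 14.4% higher and 14.5% lower on day 2. The members were chosen with earlier results of these data known, and VEGFA and NRP1 each enter by more than 1 called probe. The shares over the 17 probes, here and below, are therefore no independent comparison. The median difference over the 17 probes was 0.05 on day 1 and 0.09 on day 2, against -0.01 over all probes on either day.

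**Figure D1:**
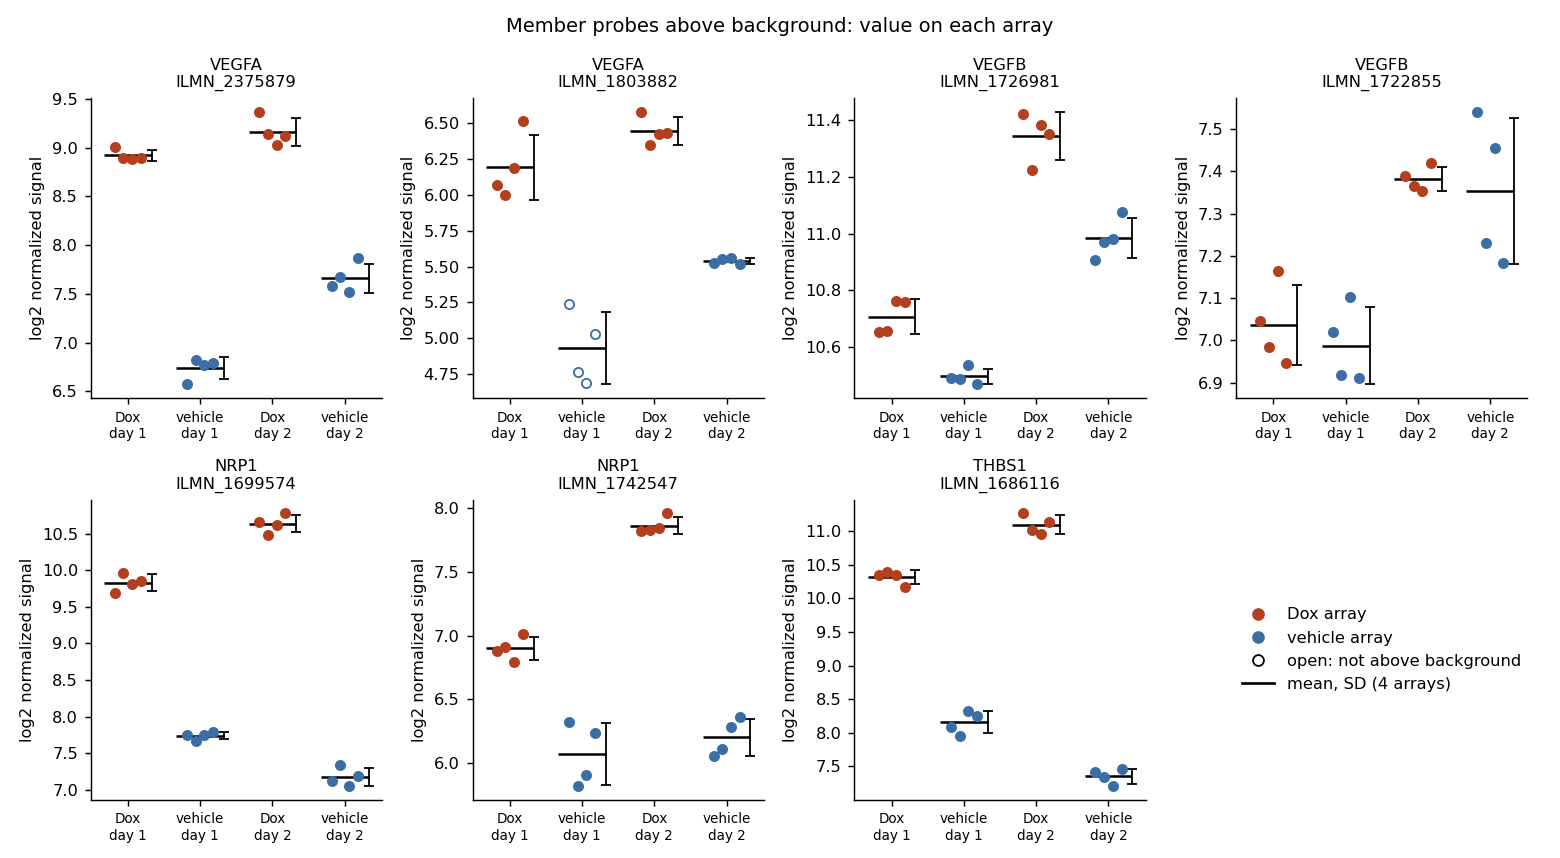
Log2 normalized signal (vertical axis, own scale per panel) on each of the 16 arrays for the 7 probes that were above background, by group, with the mean (line) and SD (bar) of the 4 arrays. Dox and vehicle arrays do not overlap on either day for VEGFA, NRP1, THBS1 and the brighter VEGFB probe, and they overlap on both days for VEGFB ILMN_1722855.

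The VEGFA probe with the highest signal, ILMN_2375879, read 9.01, 8.89, 8.88 and 8.90 on the Dox arrays of day 1, against 6.57, 6.82, 6.77 and 6.79 on the vehicle arrays of that day. On day 2 it read 9.37, 9.14, 9.03 and 9.12 with Dox, against 7.58, 7.67, 7.52 and 7.87 with vehicle. All Dox arrays lay above all vehicle arrays, and the vehicle arrays of day 2 all lay above those of day 1. The day 1 means were 8.92 ± 0.058 with Dox and 6.74 ± 0.113 with vehicle (SD, n = 4 each), a 4.54-fold difference (log2 difference 2.18, standard error 0.085, limma adjusted p = 7.6e-12) that was 2.93-fold without background correction. On day 2 the means were 9.16 ± 0.146 with Dox and 7.66 ± 0.151 with vehicle, a 2.83-fold difference (log2 difference 1.50, limma adjusted p = 1.7e-10). Among 16922 genes ordered by their Dox difference, VEGFA stood at place 31 from the top on day 1 and at place 235 on day 2.

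By ILMN_2375879 the Dox difference of VEGFA was smaller on day 2 than on day 1 by 0.68 on the log2 scale (95% interval of the change -0.93 to -0.42, limma adjusted p = 8.8e-04). The change lay mostly in the vehicle cultures. Vehicle day 2 exceeded vehicle day 1 by 0.92 (1.89-fold, limma adjusted p = 2.6e-06), and Dox day 2 exceeded Dox day 1 by 0.24 (1.18-fold, adjusted p = 0.057, not called).

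A second VEGFA probe, ILMN_1803882, was dimmer and moved in the same direction. It read 6.07, 6.0, 6.18 and 6.51 with Dox on day 1, all above background, against 5.24, 4.77, 4.69 and 5.03 with vehicle, none above background. Since the vehicle level is only bounded, VEGFA was at least 1.65-fold higher with Dox by this probe (limma adjusted p = 2.8e-07). A day later it read 6.58, 6.34, 6.42 and 6.43 with Dox, against 5.52, 5.55, 5.56 and 5.52 with vehicle. The day 2 groups did not overlap. The probe averaged 6.44 ± 0.098 with Dox and 5.54 ± 0.020 with vehicle, with all 8 arrays above background, a 1.87-fold difference (limma adjusted p = 5.1e-06). For the same reason no change of its Dox effect between days is given. Between the vehicle days it was called higher on day 2 (at least 1.05-fold, limma adjusted p = 0.0019). The third VEGFA probe, ILMN_1693060, was above background on no array.

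VEGFB, a relative of VEGFA that signals through FLT1, differed by much less. Its brighter probe, ILMN_1726981, read 10.65, 10.66, 10.76 and 10.76 with Dox on day 1, against 10.49, 10.49, 10.53 and 10.47 with vehicle. Its day 2 values were 11.42, 11.23, 11.38 and 11.35 with Dox, against 10.91, 10.97, 10.98 and 11.08 with vehicle. The groups did not overlap on either day, though the gap between them was small. The difference was 1.16-fold on day 1 (log2 0.21, standard error 0.058, limma adjusted p = 0.014) and 1.29-fold on day 2 (log2 0.36, limma adjusted p = 6.9e-05). The change of the Dox effect, 0.15 (95% interval -0.02 to 0.32), was not called (adjusted p = 0.32).

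A second VEGFB probe, ILMN_1722855, was not called for Dox on either day. It read 7.05, 6.98, 7.17 and 6.95 with Dox on day 1, against 7.02, 6.92, 7.10 and 6.91 with vehicle, and the groups overlapped. It averaged 7.04 ± 0.095 with Dox and 6.99 ± 0.092 with vehicle on day 1, a difference of 0.05 with a 95% interval of -0.12 to 0.21 (limma adjusted p = 0.78). On day 2 it averaged 7.38 ± 0.029 with Dox and 7.35 ± 0.173 with vehicle, a difference of 0.03 with a 95% interval of -0.14 to 0.20 (limma adjusted p = 0.87). The VEGFB rise with Dox therefore rests on 1 of its 3 probes, ILMN_1801814 being above background on no array. Both measured VEGFB probes were higher on day 2 than on day 1 within each treatment. The later day exceeded the earlier by 0.64 with Dox and 0.49 with vehicle for ILMN_1726981, and by 0.35 with Dox and 0.37 with vehicle for ILMN_1722855 (limma adjusted p between 2.0e-07 and 0.0054).

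**Figure D2:**
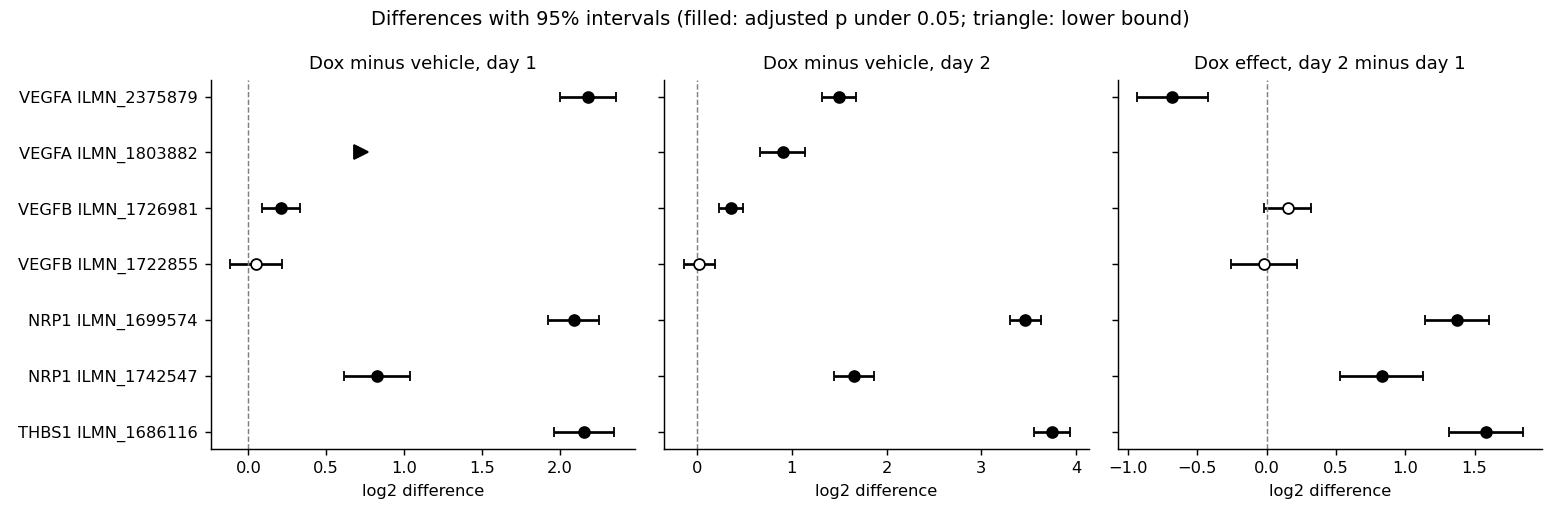
Log2 difference with its 95% interval (horizontal axis, own scale per panel) for the 7 probes above background (a triangle marks a lower bound, at least 1.65-fold for VEGFA ILMN_1803882 on day 1, which has no value in the right panel): Dox minus vehicle on day 1 (left), on day 2 (middle), and the Dox effect of day 2 minus that of day 1 (right). Filled points have an adjusted p under 0.05: in the right panel NRP1 and THBS1 lie above 0, and VEGFA ILMN_2375879 lies below it at -0.68.

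NRP1, a transmembrane co-receptor for VEGF and class 3 semaphorins, rose with Dox on day 1 and more so on day 2. Its brighter probe, ILMN_1699574, read 9.68, 9.96, 9.81 and 9.86 with Dox on day 1, against 7.74, 7.67, 7.75 and 7.79 with vehicle. On day 2 it read 10.66, 10.48, 10.62 and 10.78 with Dox, against 7.13, 7.33, 7.05 and 7.19 with vehicle. All Dox arrays lay above all vehicle arrays, and the vehicle arrays of day 2 all lay below those of day 1. The difference was 4.26-fold on day 1 (log2 2.09, standard error 0.077, limma adjusted p = 3.4e-12) and 11-fold on day 2 (log2 3.46, limma adjusted p = 1.4e-15), with day 2 at 7.20-fold without background correction. By its Dox difference NRP1 stood at place 35 of 16922 genes on day 1 and at place 22 on day 2.

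The increase of the NRP1 difference between days, 1.37 on the log2 scale (95% interval 1.14 to 1.60, limma adjusted p = 1.1e-07), had parts in both treatments by ILMN_1699574. Dox day 2 exceeded Dox day 1 by 0.81 (1.75-fold, limma adjusted p = 4.0e-07), and vehicle day 2 was lower than vehicle day 1, with a log2 difference of -0.57 (1.48-fold, limma adjusted p = 1.2e-04). The second NRP1 probe, ILMN_1742547, read 6.88, 6.91, 6.80 and 7.01 with Dox on day 1, against 6.32, 5.82, 5.91 and 6.23 with vehicle. Its day 2 values were 7.82, 7.83, 7.84 and 7.96 with Dox, against 6.06, 6.11, 6.29 and 6.36 with vehicle. Its Dox arrays, too, all lay above its vehicle arrays, while its vehicle days overlapped. It averaged 6.90 ± 0.089 with Dox and 6.07 ± 0.243 with vehicle on day 1, a 1.77-fold difference (limma adjusted p = 8.6e-06). On day 2 it averaged 7.86 ± 0.065 with Dox and 6.20 ± 0.144 with vehicle, a 3.16-fold difference (limma adjusted p = 4.1e-10) that was 1.98-fold without background correction. This probe gave the same order of days for the Dox effect (change 0.83, limma adjusted p = 6.2e-04) but not the decline with vehicle, where its difference between days was 0.13 (95% interval -0.08 to 0.35, adjusted p = 0.52).

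THBS1, the thrombospondin best known as an inhibitor of angiogenesis, had 1 probe, ILMN_1686116, and the largest day 2 difference of the 17. It read 10.34, 10.39, 10.35 and 10.17 with Dox on day 1, against 8.09, 7.96, 8.33 and 8.25 with vehicle. Its day 2 values were 11.27, 11.02, 10.95 and 11.14 with Dox, against 7.41, 7.34, 7.21 and 7.47 with vehicle. All Dox arrays lay above all vehicle arrays, with the vehicle arrays of day 2 below those of day 1. The difference was 4.46-fold on day 1 (log2 2.16, standard error 0.090, limma adjusted p = 1.5e-11) and 13.3-fold on day 2 (log2 3.74, limma adjusted p = 3.5e-15), at places 32 and 16 of the 16922 genes.

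The THBS1 difference grew by 1.58 on the log2 scale between days (95% interval 1.31 to 1.85, limma adjusted p = 1.3e-07). The share of the treatments in this was almost equal in the main fit: Dox day 2 exceeded Dox day 1 by 0.78 (1.72-fold, limma adjusted p = 3.9e-06), and vehicle day 2 fell below vehicle day 1 with a log2 difference of -0.80 (1.74-fold, limma adjusted p = 1.8e-05). Over the alternative processings the Dox part ran from 0.54 to 0.83 and the vehicle part from -0.90 to -0.57.

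Counted over the 17 probes, the change of the Dox effect between days was called positive for 3 probes (both NRP1 probes and THBS1) and negative for 1 (VEGFA ILMN_2375879), where 5.33% of all probes were called positive and 5.6% negative. Between the vehicle days 4 probes were called higher on day 2 (2 of VEGFA and 2 of VEGFB) and 2 lower (NRP1 ILMN_1699574 and THBS1), where 5.3% of all probes were called higher and 5.27% lower. Between the Dox days 5 probes were called higher on day 2 (2 of VEGFB, 2 of NRP1, and THBS1) and 0 lower, where 10.1% of all probes were called higher and 9.41% lower.

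Of the other members, the receptors KDR and FLT1, the co-receptor NRP2, the ligands VEGFC and PGF, and the matrix protein THBS2 were above background on none of the 16 arrays with any probe. Together with 1 probe each of VEGFA and VEGFB these made 10 probes, whose values lay between 4.30 and 5.33 on the log2 scale, where the dimmest probes above background stood at 5.35 to 5.52. FLT1 spanned 4.34 to 4.56 over the 16 arrays, KDR 4.40 to 4.85, VEGFC 4.30 to 4.55, PGF 4.44 to 5.02 and THBS2 4.36 to 4.69. The nearest to detection was NRP2 ILMN_2274306, which spanned 4.64 to 5.33 and had a smallest detection p of 0.012, while the other NRP2 probes spanned 4.35 to 4.87 and 4.33 to 4.56. None of the 10 was called in any comparison of the main fit (limma, smallest adjusted p 0.27), and no fold is given for them because neither treatment had a measured level.

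**Figure D3:**
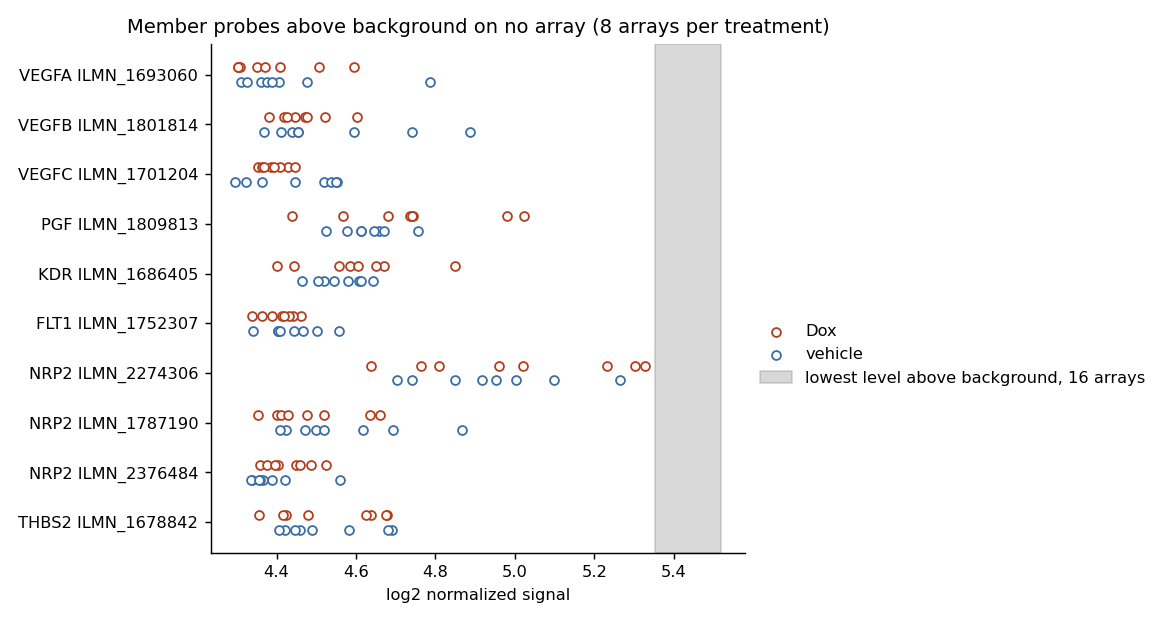
Log2 normalized signal (horizontal axis) of the 10 probes that were above background on no array, with the 8 Dox arrays above the 8 vehicle arrays of each probe. The grey band spans the lowest levels of probes above background on the 16 arrays, 5.35 to 5.52, and every point lies to its left.

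The genes whose course over the 4 groups was most like that of VEGFA, NRP1 and THBS1 were found among 9850 named probes above background on at least 4 arrays. Likeness was the root mean square difference of the 4 group means, each gene centred on its own mean. The nearest to NRP1 was THBS1 and the nearest to THBS1 was NRP1, with a difference of 0.120 log2 units. SDCBP2 and FCGBP followed for both, at 0.138 and 0.178 from NRP1 and at 0.215 and 0.264 from THBS1. SDCBP2, which encodes syntenin-2, was above background on 8 of 8 Dox arrays and 0 of 8 vehicle arrays. Its level with Dox was at least 3.31-fold above vehicle after 1 day and at least 4.82-fold after 2 days (limma adjusted p = 3.0e-11 and 1.3e-13), and its likeness to NRP1 and THBS1 rests on vehicle levels that were not measured. The Dox difference of FCGBP was 2.38 on day 1 and 3.05 on day 2, in log2 units. The nearest to VEGFA were KLK2, a kallikrein protease of the prostate (0.138), GABARAPL1, an autophagy protein (0.171), and HELZ2 (0.172). Of these, KLK2 had a Dox difference of 1.92 on day 1 and 1.66 on day 2, and was 0.54 higher on vehicle day 2 than on vehicle day 1. Over 4 group means these are descriptions of shape, made on the same arrays.

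**Figure D4:**
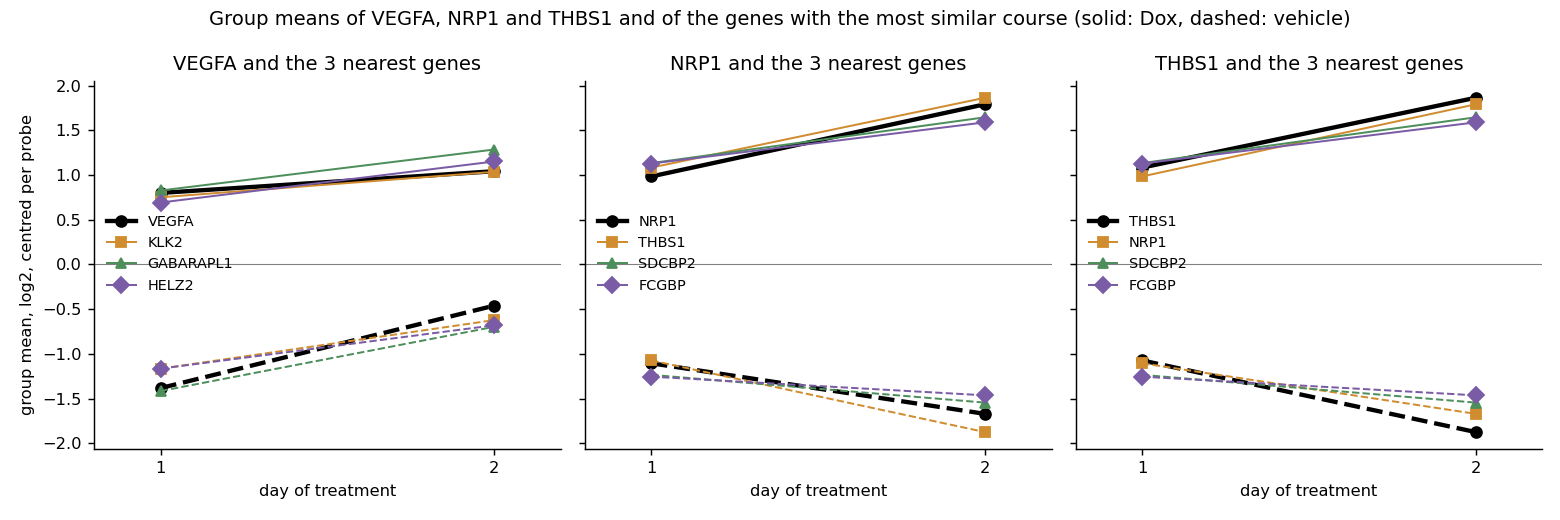
Group means on the log2 scale, centred on each gene's mean over the 4 groups (vertical axis), by day of treatment (horizontal axis) for VEGFA, NRP1 and THBS1 (thick lines) and the 3 genes nearest to each. The vehicle levels of SDCBP2 were below background. Solid lines are Dox and dashed lines vehicle: the lines of NRP1 and THBS1 part between days, and the dashed line of VEGFA stands at -0.46 on day 2, against -1.38 on day 1.

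Genes of the surrounding pathways were counted from 7 lists outside the members, each gene by its probe of highest mean. Genes above background on no array stay in these counts and medians. Over all 16922 genes, 10.7% were called higher and 11.5% lower with Dox on day 1, and 16.6% higher and 16.7% lower on day 2, with a median of -0.01 on either day. In the VEGF and PDGF family, 0 of 9 genes were called on day 1, and 0 higher and 2 lower on day 2, among them PDGFRL (1.43-fold lower, limma adjusted p = 1.1e-04). Of the 9 genes, 5 were above background on no array and had no measured level. The list median was -0.01 on day 1 and -0.13 on day 2. Of 15 class 3 semaphorins and plexins, the other ligands and partners of neuropilins, 3 were higher and 0 lower on day 1, and 2 higher and 1 lower on day 2. Above background on no array were 4 of the 15. PLXNA1, which encodes a semaphorin receptor, was 1.43-fold higher on day 1 and 1.60-fold higher on day 2 (limma adjusted p = 0.0028 and 1.2e-04), and PLXNA3 was 1.35-fold higher on day 1 (limma adjusted p = 0.011). The median was 0.08 on day 1 and 0.04 on day 2.

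Of 17 genes of the thrombospondin family and its receptors, with ADAMTS1 and TGFB1 also listed, 3 were higher and 1 lower on day 1. On day 2, 5 were higher and 3 lower. The gene lower on day 1 was ADAMTS1, which is neither a thrombospondin nor a receptor. Above background on no array were 7 of the 17. ADAMTS1, a protease with thrombospondin motifs, fell 3.08-fold on day 1 and 2.62-fold on day 2 (limma adjusted p = 1.7e-10 and 2.9e-10). THBS3 rose 1.59-fold on day 1 and 1.48-fold on day 2 (limma adjusted p = 0.0028 and 0.0059), with 3 of the 4 vehicle arrays of day 1 above background. The list median was 0.02 on day 1 and 0.06 on day 2.

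Of 28 genes of VEGF receptor signalling with a probe, 10 were higher and 4 lower on day 1, and 10 higher and 7 lower on day 2. The median was 0.01 on day 1 and 0.12 on day 2, and 3 of the 28 were above background on no array. The largest changes were those of SPHK1, the kinase that makes sphingosine 1-phosphate, and of SHB, an adaptor protein. SPHK1 averaged 7.12 with Dox and 5.42 with vehicle on day 1 (3.25-fold, limma adjusted p = 5.0e-09), and 8.66 with Dox and 5.18 with vehicle on day 2 (11.2-fold, limma adjusted p = 9.3e-14). It was above background on all Dox arrays, but with vehicle on 2 of the 4 arrays of day 1 and 1 of the 4 of day 2. SHB rose 3.50-fold on day 1 and 6.35-fold on day 2 (limma adjusted p = 7.7e-11 and 1.0e-13).

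Of 20 regulators of VEGFA transcription and mRNA stability, 4 were higher and 3 lower on day 1, and 8 higher and 5 lower on day 2. Above background on no array were 2 of the 20. ZFP36L2, which binds AU-rich elements and promotes mRNA decay, rose 2.86-fold on day 1. On day 2 no vehicle array registered it, and the rise was at least 6.18-fold (limma adjusted p = 3.4e-08 and 6.8e-13). ELAVL1 (HuR), which stabilizes mRNAs with such elements, was 1.65-fold lower on day 1 (limma adjusted p = 4.6e-06). EPAS1, the hypoxia-inducible factor HIF-2 alpha, was 2.29-fold higher on day 2 (limma adjusted p = 2.3e-06). The median was 0.06 on day 1 and 0.10 on day 2.

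Of 20 other angiogenic factors, 3 were higher and 6 lower on both days, and 10 were above background on no array. ANGPTL4, a secreted angiopoietin-like protein, rose 2.25-fold on either day (limma adjusted p = 1.6e-06 and 5.8e-07). EFNB2, the ligand ephrin-B2, fell 1.89-fold on day 1, and ANG, the secreted ribonuclease angiogenin, fell 2.73-fold on day 2 (limma adjusted p = 6.9e-09 and 5.0e-12). The median was -0.07 on either day. Of 15 secreted inhibitors of angiogenesis 14 were above background on no array, 0 were called higher and 1 lower on either day. That gene was COL4A2, at least 1.32-fold lower on day 2 (limma adjusted p = 2.2e-04), and the list median was 0.02 on day 1 and 0.03 on day 2.

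**Figure D5:**
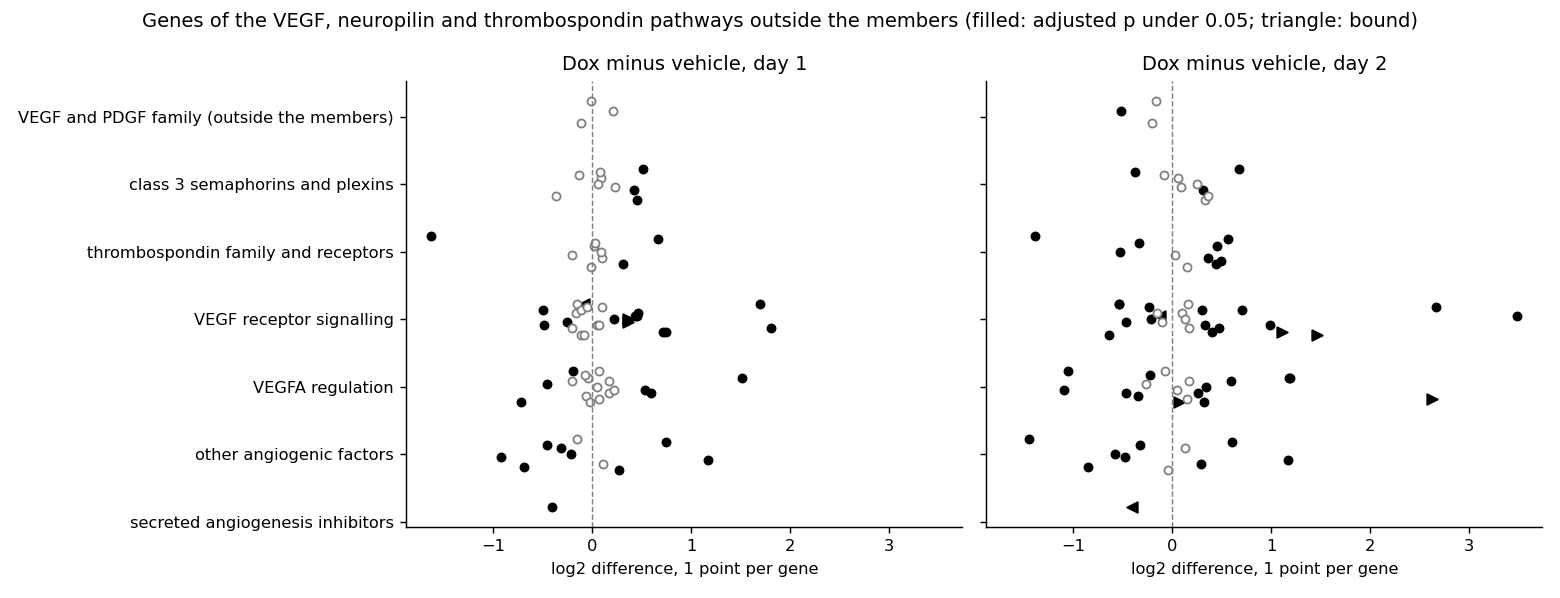
Log2 difference of Dox minus vehicle (horizontal axis) on day 1 (left) and day 2 (right) for the genes of each list (rows) with a measured difference, 1 point per gene, spread vertically for legibility, and with a triangle at the bound where 1 treatment was below background. Filled points have an adjusted p under 0.05: VEGF receptor signalling reaches 3.49 (SPHK1) on day 2, the triangle of ZFP36L2 stands at its bound of 6.18-fold, and ADAMTS1 is the leftmost point on day 1 at -1.62.

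The endothelial markers, summed over the 10 genes, lay at 318.3 to 350.7 normalized signal units with Dox and 308.8 to 323.1 with vehicle on day 1, and at 288.9 to 324.5 with Dox and 338.4 to 376.2 with vehicle on day 2. The stromal sums were 200.2 to 228.0 with Dox and 187.2 to 233.0 with vehicle on day 1, and 220.6 to 231.3 with Dox and 228.0 to 237.1 with vehicle on day 2. Summed over the 7 prostate epithelial markers the signal was 3031 to 3219 with Dox and 3278 to 3464 with vehicle on day 1, and 3557 to 3974 with Dox and 4599 to 4899 with vehicle on day 2. Singly, 1 of these 7 was called higher and 3 lower on day 1, and 2 higher and 3 lower on day 2. The prostate epithelial sums were lower with Dox on both days without overlap, and the endothelial sums on day 2. Sums of unlogged signals weigh bright genes most, so a lower sum does not show that the single markers shared a direction. Above background on no array were 7 of the 10 endothelial and 4 of the 7 stromal markers. The part of the shifts of these sums in the VEGFA, NRP1 and THBS1 differences was not tested.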

How the data were processed

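The deposited signal intensities are mean bead signals per probe from BeadStudio, left without background correction or scaling by the authors. The deposited detection p-values are from BeadStudio as well. The deposited log2 table holds the authors' values after model-based background correction (MBCB) and quantile normalization. Its columns all had the median 4.67 and ranked probes as the signals of the same arrays did (Spearman's rho at least 0.9999), so scale, centring and direction are known. It was used as an alternative only.

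Signals were corrected with limma's normal-exponential model (negative controls inferred from the detection p-values, offset 16), quantile normalized and put on the log2 scale, in R 4.3.3 with limma 3.58.1. A model with 4 group means was fitted to all 16 arrays. Tests were moderated, two-sided and adjusted by Benjamini-Hochberg over 24526 probes, with 0.05 as the threshold, and the fit was tested on simulated data. The 4 cultures of a group are biological quadruplicates, and their number limits the precision. Folds against a group without any array above background are bounds, set at each array's lowest level among probes above background. Where neither group was, no fold is given.

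The annotation named 21834 probes and left 2692 unnamed. All member probes are given. From each list, the 2 genes with the largest called difference per day were named, provided that 1 treatment had all its 4 arrays above background and that the treatments did not overlap. Of 161 listed genes 147 had a named probe, whether or not it was above background. The members and lists were chosen with earlier results of these data known. Slide positions are not given in the sources used here.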

Additional observations from a re-analysis of the deposited data

Results flagged for a closer look

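The Dox effect differed between days for 4 probes. The Dox difference of day 2 minus that of day 1 was 1.37 for NRP1 ILMN_1699574, 0.83 for NRP1 ILMN_1742547, 1.58 for THBS1 ILMN_1686116 and -0.68 for VEGFA ILMN_2375879, on the log2 scale (limma's interaction, adjusted p between 1.1e-07 and 8.8e-04).

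Of 27 groups of 4 arrays with a member probe above background on all 4, 2 held an array apart from the other 3, where chance flags about 1 in 20. VEGFA ILMN_2375879 read 9.01 on Dox day 1 replicate 1 and 8.88 to 8.90 on the others. NRP1 ILMN_1742547 read 7.96 on Dox day 2 replicate 4 and 7.82 to 7.84 on the others.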

How the results depend on the processing

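Each of the 10 counts of called member probes was recomputed with an offset of 50, without background correction, from the authors' normalized values, with median scaling, among probes above background on at least 4 arrays, with the replicate number as a block, and without each of the 16 arrays in turn, and all stayed within 1.5 times the value given. The folds moved more, being smaller without background correction: in log2 units VEGFA ILMN_2375879 was 1.55 on day 1 and -0.37 for the change between days, NRP1 ILMN_1699574 was 2.85 and ILMN_1742547 0.98 on day 2, and THBS1 was 3.17 on day 2, all still called. The count of Dox over both days was 6 in the main fit and 6 by the methods' two-way analysis of variance. Replicate numbers were not taken to pair the cultures, since the correlations of deviations ran from -0.32 to 0.42 and 6 of 24 pairs were over 0.1, with 5 of 16 arrays nearest to their own number. Of those 6 pairs 5 were among the 6 of replicate 1. With the replicate block 6 member probes were called higher on day 1 and 6 on day 2, and without replicate 1 in every group, an alternative chosen after seeing the data, 6 and 7. The added probe on day 2 was 1 of the 10 above background on no array.

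Of 35 single differences, 2 lost their call, both of VEGFB ILMN_1722855. This was with median scaling, with 0.27 between the vehicle days (adjusted p = 0.074) and 0.15 between the Dox days (adjusted p = 0.28), and without replicate 1 in every group for the vehicle days, with 0.31 (adjusted p = 0.051). VEGFA ILMN_2375879 between the Dox days, not called at 0.24, passed the threshold in 6 alternatives, at 0.21 to 0.29. VEGFA ILMN_1803882 did so at 0.36 without Dox day 1 replicate 4. In the other alternatives neither passed. Over all alternatives ILMN_2375879 ranged from 0.0087 to 0.29 (largest limma adjusted p 0.96). For ILMN_1803882 the range was 0.12 to 0.36 (largest limma adjusted p 0.45). The causes were not tested. The uncalled Dox difference of VEGFB ILMN_1722855 on day 2 turned to -0.0017 with median scaling, and ranged from -0.027 to 0.092 without single arrays. Its uncalled change of the Dox effect, -0.02, ranged from -0.075 to 0.044 without single arrays and was 0.033 without replicate 1 in every group.

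Genes near background are the limit: the 10 member probes above background on no array have no measured level, so a difference in VEGFC, PGF, KDR, FLT1, NRP2 or THBS2 below it was not detectable. Both VEGFA probes and both NRP1 probes differed in the size of their folds.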
